A study of Mus musculus with 36 samples.

Results

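The genes described here are 8 that code for proteins of the cartilage extracellular matrix or are known from cartilage-forming cells: *Acan*, *Comp*, *Cilp*, *Cilp2*, *Matn2*, *Hapln1*, *Chad* and *Scrg1*. They were taken by symbol from the 53421 genes of the deposited count table. The choice was made with earlier results of these data known. Of these 8 genes, 5 were measured well enough to compare (*Comp*, *Cilp2*, *Matn2*, *Hapln1* and *Scrg1*). The other 3, *Acan*, *Cilp* and *Chad*, had a mean under 5 reads per library and are given as counts only. The cells were mouse fibroblast-like chondrocytes of 1 conditionally immortalised line, taken out of the immortalising conditions before use and transfected with a non-targeting siRNA pool (NT) or an siRNA pool against *Ift88* (IFT88siRNA). *Ift88* codes for a part of the transport machinery that builds the primary cilium. Cells of both groups were kept in medium only (0 h) or given IL-1β, an inflammatory cytokine, at 10 ng/ml, and were collected 1, 2, 4, 8 or 24 h later. Each of the 12 conditions had 3 replicates, giving 36 poly(A) RNA libraries. All libraries of the later times were given IL-1β, so the effect of IL-1β and that of further hours in culture cannot be told apart. No source used here says whether replicates were separate cultures, so p-values measure the spread between these samples, which may be technical.

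Cartilage matrix is built around aggrecan (*Acan*), a large proteoglycan whose chondroitin sulfate chains hold water. Aggrecan is held on hyaluronan by link protein (*Hapln1*). Smaller proteins tie the fibrils and proteoglycans together: COMP, a thrombospondin that binds collagen, the matrilins such as matrilin-2 (*Matn2*), and chondroadherin (*Chad*), a leucine-rich repeat protein that binds collagen and cells. CILP and CILP-2 are related large glycoproteins of the matrix, and *Scrg1* codes for a small secreted protein first named for scrapie and found in cartilage-forming cells. IL-1β is known for inducing proteases that cut aggrecan and for lowering the making of matrix by chondrocytes.

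On GRCm38, *Cilp2* lies at chr8:69880369-69887687 on the reverse strand. *Comp* (chr8:70373558-70382066) and *Scrg1* (chr8:57455923-57477585) lie on the forward strand of the same chromosome. *Hapln1* (chr13:89539796-89611652), *Matn2* (chr15:34306677-34436273), *Acan* (chr7:79053483-79115099), *Cilp* (chr9:65265180-65280605) and *Chad* (chr11:94565047-94569127) are also forward. All 8 are protein-coding, and the counts are of reads on their exons. The exons of *Matn2* overlap those of a gene on the other strand, 9430069I07Rik, over 70 bases, which is 1.12% of the exonic length of *Matn2*. *Chad* lies wholly inside the span of *Acsf2* on the other strand but shares no exon base with it. Of all 31-base words in their transcripts, 3.04% in *Matn2* and 0.308% in *Hapln1* also occur in a transcript of another gene, and none do in the other 6, the related pair *Cilp* and *Cilp2* included.

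Total counts on genes ranged from 19337022 to 38304127 per library. The median was 21672803.5 over the 18 NT libraries and 25873754 over the 18 of IFT88siRNA. Reads carried no molecular identifiers, so intervals and floors given here cover counting error only. The targeted gene, *Ift88*, ran from 5.83 to 10.2 CPM (the counts-per-million scale, with TMM factors) in the NT libraries and from 1.43 to 3.1 in the IFT88siRNA libraries, without overlap. The cells carried a mixed set of markers. Of 11 chondrocyte markers, 5 had a mean of at least 1 TPM (the transcripts-per-million scale, per length), namely *Col2a1*, *Sox9*, *Col11a2*, *Comp* and *Hapln1*, while *Acan*, *Col9a1*, *Matn3*, *Chad*, *Cnmd* and *3110079O15Rik* were below that level. Aggrecan, which defines cartilage matrix, was thus near 0 (mean of *Acan* 0.0591 TPM), so the chondrocyte label was met only in part. All 10 fibroblast markers passed it. The summed level of the chondrocyte markers ran from 20.5 to 68.8 TPM and that of the fibroblast markers from 3240 to 5360 TPM in NT, against 26.1 to 63.4 and 3120 to 5030 TPM in IFT88siRNA. Of 5 macrophage markers 1 reached a mean of 1 TPM, *Cd68* at 7 TPM (4.32 to 12.3 over the libraries). The macrophage markers *Ptprc* and *Adgre1* had means of 0.0482 and 0.00518 TPM. None of 4 endothelial or 3 adipocyte markers reached a mean of 1 TPM. Of 4 tendon markers 3 reached that mean, and the 4 summed to 81.4 to 337 TPM in NT and 81.3 to 314 TPM in IFT88siRNA. Of 5 osteoblast markers 2 reached it, *Runx2* (20 TPM) and *Bglap* (2.14 TPM). Of 4 neural and glial markers 2 did, *Tubb3* (6.41 TPM) and *Gfap* (1.56 TPM). The smooth muscle markers, led by *Acta2*, summed to between 404 and 4820 TPM in NT and 519 to 4700 TPM in IFT88siRNA. The part of these other markers in the results below was not tested.

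In NT cells at 0 h the 8 genes spread over a wide range of levels per length. *Matn2* was highest, at 20.3 ± 1.42 TPM (SD, n = 3). *Comp* at 9.78 ± 0.72 TPM and *Hapln1* at 8.13 ± 0.843 TPM followed, and their libraries overlapped. *Cilp2* stood at 2.19 ± 0.287 TPM and *Scrg1* at 1.15 ± 0.793 TPM, the latter with 1 library at 0.291 and the highest at 1.85 TPM. *Chad* had 0.374 ± 0.0963 TPM, *Acan* 0.126 ± 0.0608 TPM and *Cilp* 0.103 ± 0.0398 TPM. The values of *Scrg1* and *Chad*, and those of *Acan* and *Cilp*, overlapped.

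The first question of the design is how the cells answered IL-1β over time. In NT, *Cilp2*, *Scrg1* and *Comp* rose within 1 h, stayed above the 0 h level to 8 h and were below it at 24 h. *Hapln1* was lower from 4 h on, and the mean of *Matn2* stayed within 1.24-fold from its lowest to its highest time. Genes were called changed at an adjusted p (edgeR quasi-likelihood test, two-sided, Benjamini-Hochberg over all genes of the fit) under 0.05 with a fold change over 1.5. Of the 5 measured genes, 3 were called higher and 0 lower at 1 h, where 9.22% of all genes tested were called higher and 9.45% lower. The count was again 3 higher and 0 lower at 2 h (13.0% and 14.3% of all genes), 3 higher and 1 lower at 4 h (16.3% and 12.4%), 3 higher and 1 lower at 8 h (11.8% and 7.87%), and 0 higher and 4 lower at 24 h (6.61% and 9.71%). *Acan*, which the fit also kept and called lower at 4 h and 24 h, is too low to measure and is left out of these counts. Over the 5 measured genes the median log2 change was 1.23 at 1 h and -1.26 at 24 h, against -0.01 and -0.02 over all genes tested. With the 5 times tested together, 4 of the 5 measured genes were called, and so were 50.0% of all genes tested, a share that makes such a call common. RNA was taken from whole cultures, so fewer cells of a kind and less RNA per cell cannot be told apart in any of these values. Where groups of libraries are said not to overlap, here and below, the share of all genes that do so was not counted. Such statements are descriptions only.

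**Figure D1:**
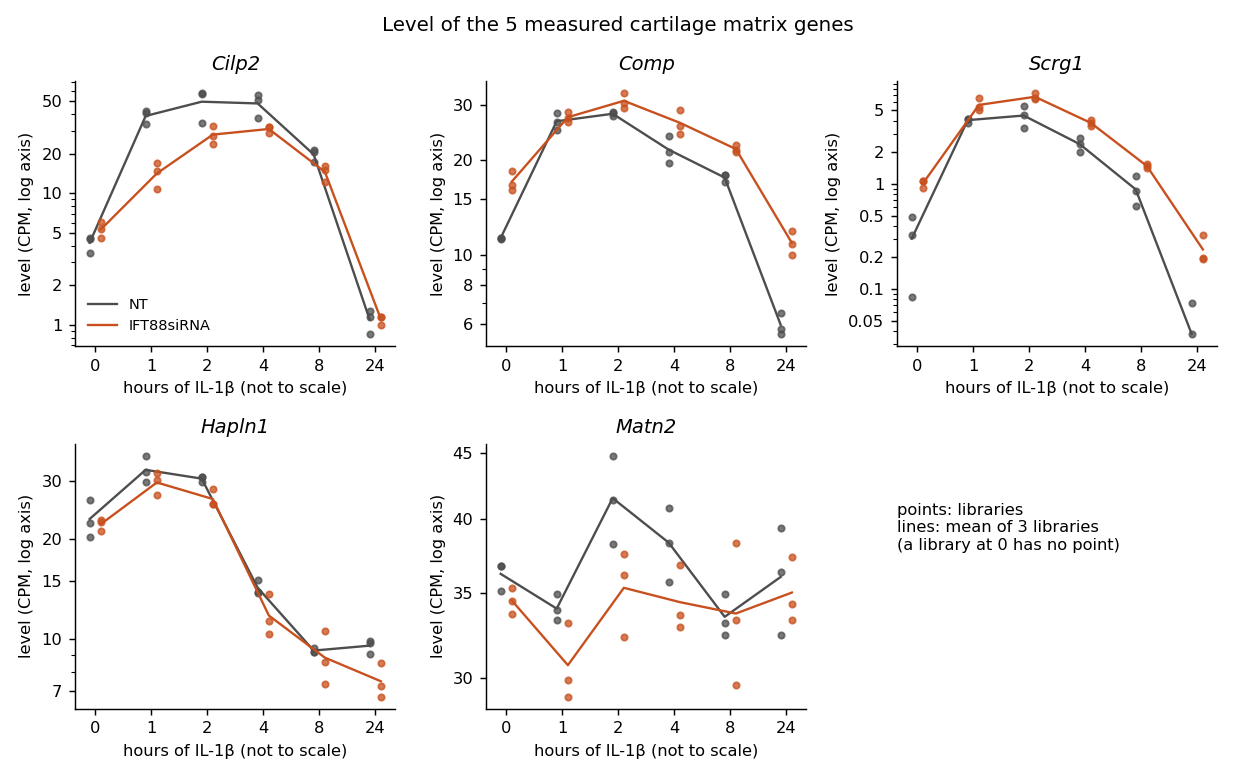
Level of the 5 measured genes in CPM (log axis) against hours of IL-1β, for NT (grey) and IFT88siRNA (orange); points are libraries and lines join the means of 3. *Cilp2*, *Comp* and *Scrg1* arch upward and end below their start, *Hapln1* peaks at 1 h and falls, and *Matn2* stays between 29.0 and 44.8 CPM on its own narrow axis.

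*Cilp2*, the CILP-2 gene, had the widest range of the 4 genes with a mean of 444 reads or more per library, which leaves out *Scrg1*. The 3 NT libraries at 0 h had 4.52, 4.58 and 3.55 CPM. At 1 h they had 42.2, 33.5 and 40.8 CPM, and at 2 h 57.9, 34.4 and 57.1 CPM. Every library at 1 h and 2 h was thus above every library at 0 h by several fold, with replicate 2 the lowest of its group at both times. The level was 51.0, 37.6 and 56.4 CPM at 4 h, and 20.6, 17.2 and 21.5 CPM at 8 h. At 24 h it had dropped to 1.16, 0.855 and 1.29 CPM, below all libraries at 0 h. The log2 change of *Cilp2* against 0 h was 3.19 ± 0.2 (SE) at 1 h (adjusted p = 2.05e-12) and 3.55 ± 0.195 at 2 h (adjusted p = 8.35e-14), an 11.7-fold rise. It was -1.93 ± 0.352 at 24 h (adjusted p = 7.92e-05). The highest mean in NT, 49.8 CPM at 2 h, was 45.3 times the lowest, 1.1 CPM at 24 h.

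*Comp*, the thrombospondin that binds collagen fibrils, moved along a like arch with a smaller amplitude. In NT the libraries had 11.3, 11.3 and 11.2 CPM at 0 h, and 28.3, 24.9 and 26.5 CPM at 1 h. At 2 h they had 28.4, 28.3 and 27.6 CPM, the tightest group of the rise. The level then went down through 21.3, 19.6 and 23.8 CPM at 4 h and 18, 18 and 17 CPM at 8 h to 6.54, 5.8 and 5.59 CPM at 24 h. The groups from 1 h to 8 h lay wholly above the group at 0 h, and that at 24 h wholly below it. The log2 change was 1.23 ± 0.0735 at 1 h (adjusted p = 8.26e-13), then 1.31 ± 0.0729 at 2 h (adjusted p = 1.01e-13) and -0.92 ± 0.0865 at 24 h (adjusted p = 3.42e-09). The rise at 8 h, 0.65 on the log2 scale or 1.57-fold, was near the fold threshold and was not called on the TPM values, where it was 0.49 (limma on log2(TPM + 1), adjusted p = 0.000148).

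*Scrg1* also rose steeply, from very few reads. Its NT libraries held 2, 8 and 11 reads at 0 h, then 78, 87 and 85 at 1 h and 87, 74 and 124 at 2 h. Counts were 42, 44 and 52 at 4 h, and 25, 14 and 23 at 8 h. At 24 h only 1, 2 and 0 reads were left, fewer than or as many as in the lowest library at 0 h. The log2 change was 3.73 ± 0.319 at 1 h (adjusted p = 6.49e-10) and 3.88 ± 0.313 at 2 h (adjusted p = 1.15e-10). The 3 libraries at 0 h differ among themselves by over 5-fold in reads, so the size of this rise depends on them: it ran from 3.44 to 4.38 at 2 h with single libraries left out. At 24 h, the 3 reads in all against 21 at 0 h give a ratio of 0.121 after scaling, with an exact 95% counting interval from 0.0231 to 0.406. The fall was called in the fit (adjusted p = 0.00512).

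*Hapln1*, the link protein gene, was above its 0 h level at 1 h by less than the fold threshold and below it from 4 h to 24 h. NT libraries had 20.3, 22.4 and 26.2 CPM at 0 h and 35.6, 29.6 and 31.8 CPM at 1 h, a log2 change of 0.49 ± 0.0758 (adjusted p = 7.7e-06), which is 1.4-fold. At 4 h they had 15.1, 13.8 and 13.9 CPM, at 8 h 9.2, 9.43 and 9.15 CPM, and at 24 h 9.91, 9.78 and 9.04 CPM. The groups at 1 h and at 4 h did not overlap the group at 0 h, in opposite directions. The log2 change was -0.68 ± 0.0841 at 4 h (adjusted p = 1.58e-07), then -1.3 ± 0.087 at 8 h (adjusted p = 4.14e-12) and -1.26 ± 0.0843 at 24 h (adjusted p = 6.02e-12). NT replicate 3 at 0 h, the highest of its group, decided 2 calls: without it, the difference at 1 h passed the fold threshold (log2 0.59) and the fall at 4 h did not (log2 -0.58).

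*Matn2*, which codes for a matrilin found in many tissues outside cartilage, was the best counted member and the steadiest. It ran from 32.4 to 44.8 CPM in NT, and its mean was lowest at 8 h (33.5 CPM) and highest at 2 h (41.5 CPM). No time was called, and the largest log2 change was 0.2 ± 0.0666 at 2 h (adjusted p = 0.0138). On TPM, the same difference ran the other way: the mean was 20.3 TPM at 0 h and 19 TPM at 2 h. The all-gene median also shifted between the tables, to -0.217 on log2(TPM + 1) at 2 h, so the sign of a change this small is not settled by these data. Tested over all 5 times together, the adjusted p was 0.00178 with no fold over 1.5.

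In IFT88siRNA cells *Cilp2*, *Comp*, *Scrg1* and *Hapln1* were again called at 1 or more times, and *Matn2* at none (log2 changes from -0.17 to 0.03). Of the 5 measured genes, 3 were called higher and 0 lower at 1 h (6.82% and 8.25% of all genes tested) and at 2 h (12.4% and 13.2%). The counts were 3 higher and 1 lower at 4 h (16.0% and 13.3%), 1 higher and 1 lower at 8 h (10.5% and 7.11%), and 0 higher and 4 lower at 24 h (6.36% and 7.87%). *Cilp2* had 6.03, 5.38 and 4.59 CPM at 0 h, and 10.8, 14.9 and 16.9 CPM at 1 h. It reached 27.5, 23.9 and 32.7 CPM at 2 h and 31.9, 32.2 and 28.7 CPM at 4 h, its highest group there. Its log2 change was 1.41 ± 0.15 at 1 h (adjusted p = 4.16e-08), then 2.39 ± 0.142 at 2 h (adjusted p = 4.98e-13), then 2.53 ± 0.142 at 4 h (adjusted p = 9.47e-14) and -2.28 ± 0.22 at 24 h (adjusted p = 6.62e-09). *Comp* changed by 0.68 ± 0.0747 at 1 h, 0.85 ± 0.0744 at 2 h, 0.62 ± 0.0758 at 4 h and -0.65 ± 0.0797 at 24 h, all called. The 4 h call of *Comp* is at a fold of 1.53 and was lost without IFT88siRNA replicate 3 at 0 h (log2 0.58) or replicate 2 at 4 h (log2 0.54). On TPM with limma its changes at 1 h and 4 h were 0.5 and 0.41, under the fold threshold. *Scrg1* changed by 2.47 ± 0.152 at 1 h, 2.73 ± 0.15 at 2 h, 1.91 ± 0.163 at 4 h and -2.08 ± 0.26 at 24 h, all called. *Hapln1* changed by -0.91 ± 0.108 at 4 h, -1.33 ± 0.109 at 8 h and -1.58 ± 0.109 at 24 h, all called.

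**Figure D2:**
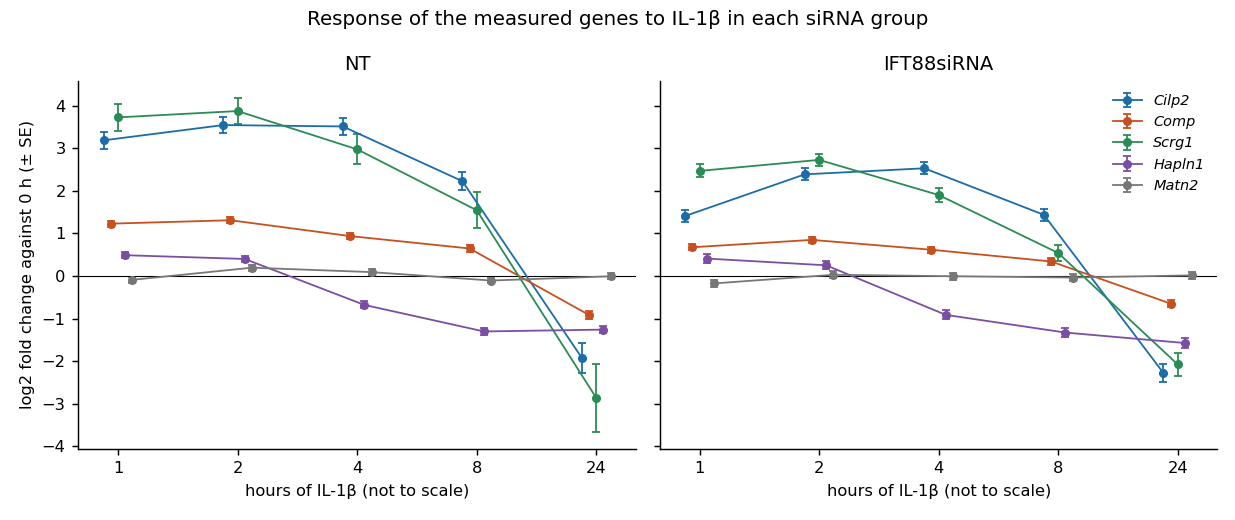
Log2 fold change against 0 h (± SE of the edgeR fit) after 1 to 24 h of IL-1β in NT (left) and IFT88siRNA (right), for the 5 measured genes. *Cilp2* reaches 3.55 in NT and 2.53 in IFT88siRNA. At 24 h *Cilp2*, *Comp*, *Scrg1* and *Hapln1* lie below 0 in both panels, and *Matn2* is at -0.01 in NT and 0.02 in IFT88siRNA.

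The second question is whether depletion of *Ift88* changed these genes. Over 6 times and 8 genes, 7 of 48 comparisons between IFT88siRNA and NT were called, with those not tested counted as not called. *Acan*, *Cilp* and *Chad* were tested at none of the 6 times, and *Scrg1* was not tested at 24 h. *Cilp2* was lower in IFT88siRNA at 1, 2 and 4 h, *Comp* was higher at 0 h and 24 h, and *Scrg1* was higher at 0 h and 4 h. At 0 h, 2 of the 5 genes tested were called, both higher, where 0.674% of all genes tested were called higher and 1.56% lower. At 1 h 1 gene was called, lower, where 0.182% of all genes were higher and 2.47% lower, and at 2 h again 1, lower, where 0.0339% were higher and 0.462% lower. At 4 h 1 was lower and 1 higher, where 0.0338% of all genes were higher and 0.399% lower. At 8 h 0 of the 5 genes tested were called by edgeR or by DESeq2, where 0.0791% of all genes were higher and 0.613% lower. In edgeR 3 of the 5 had an unadjusted p under 0.05 there. The share of all genes with such a p was not counted, so this count has no background to be read against. *Comp* and *Cilp2* had an adjusted p of 0.0406 and 0.0412 but were under the fold threshold, and *Scrg1* had 0.143. At 24 h 1 of the 4 genes tested was called, higher, where 0.552% of all genes were higher and 0.598% lower. With the 6 times tested together in all 36 libraries, 3 of the 5 measured genes were called (*Cilp2*, *Comp* and *Scrg1*), where 5.19% of all genes tested were. *Acan*, called there too, is left out because it passed the filter only through the NT libraries.

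**Figure D3:**
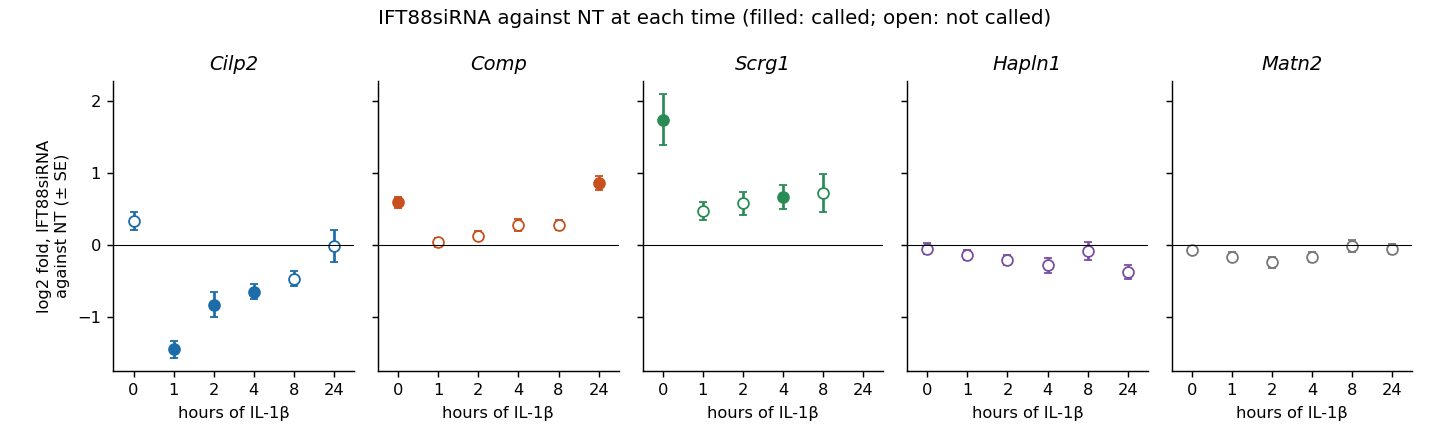
Log2 fold difference of IFT88siRNA against NT (± SE) at each time for the 5 measured genes, from fits of 3 against 3 libraries; filled points were called and open points were not, and *Scrg1* was not tested at 24 h. *Cilp2* is at -1.45 at 1 h and at -0.01 at 24 h, while *Comp* is at 0.6 at 0 h, 0.04 at 1 h and 0.87 at 24 h.

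*Cilp2* was called lower in IFT88siRNA at 1, 2 and 4 h and not at 0 h. There its 3 IFT88siRNA libraries lay just above the 3 NT libraries, with a log2 difference of 0.34 ± 0.129 that was not called (adjusted p = 0.0714). At 1 h the IFT88siRNA libraries, at 10.8 to 16.9 CPM, lay far below the NT libraries, at 33.5 to 42.2 CPM. The log2 difference was -1.45 ± 0.115 (adjusted p = 5.21e-07), 0.366 of the NT level. It then narrowed to -0.83 ± 0.171 at 2 h (adjusted p = 0.0274), then -0.65 ± 0.106 at 4 h (adjusted p = 0.00254) and to -0.46 ± 0.11 at 8 h (adjusted p = 0.0412, under the fold threshold), and was -0.01 ± 0.226 at 24 h. The groups did not overlap from 1 h to 8 h and overlapped at 24 h. The 1 h call held without any single library (log2 from -1.58 to -1.29), while the 2 h call was lost without NT replicate 1 (-0.71) or 3 (-0.71) or IFT88siRNA replicate 1 (-0.81) or 2 (-0.73), and the 4 h call without NT replicate 3 (-0.51). DESeq2 gave an adjusted p of 0.0513 at 2 h. On log2(TPM + 1) with limma the 2 h and 4 h differences were not called (adjusted p = 0.271 and 0.142), and the 1 h difference was -1.27 with an adjusted p of 0.0517 when no minimum TPM was set.

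The response of *Cilp2* to IL-1β itself differed between the siRNA groups. The log2 change from 0 h in IFT88siRNA minus that in NT was -1.78 ± 0.287 at 1 h, -1.16 at 2 h, -0.98 at 4 h, -0.79 at 8 h and -0.35 at 24 h. Tested over the 5 times together, the adjusted p was 0.000867, and it stayed between 3.18e-05 and 0.00368 with each of the 36 libraries left out. Of all genes tested, 1.20% were called in this test, and *Cilp2* was the only one of the 8. *Comp* had a lower adjusted p, 2.69e-05, but its largest difference in response was -0.56 at 1 h, a fold of 0.68 and short of the threshold. Left without NT replicate 2 at 1 h, IFT88siRNA replicate 3 at 0 h or IFT88siRNA replicate 3 at 1 h, *Comp* passed it. For *Scrg1* the differences were -1.26 at 1 h and -1.15 at 2 h with an adjusted p of 0.119, which was 0.0484 without NT replicate 2 at 2 h. For *Hapln1* and *Matn2* the adjusted p was 0.616 and 0.612, with log2 differences from -0.32 to -0.02 and from -0.17 to 0.08. A missed threshold does not show that the responses were alike.

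*Comp* differed most at the ends of the course. At 0 h the IFT88siRNA libraries had 16.7, 18.5 and 16.1 CPM against 11.3, 11.3 and 11.2 CPM in NT. The log2 difference was 0.6 ± 0.0765 (adjusted p = 6.75e-06), a fold of 1.52 at the edge of the threshold, and without IFT88siRNA replicate 2 it was 0.54 and no longer called. It was also under the fold threshold with upper-quartile scaling (0.58) and on log2(TPM + 1) (0.44). At 1 h the groups overlapped, at 26.4 to 28.5 CPM and 24.9 to 28.3 CPM. At 24 h IFT88siRNA had 9.98, 10.8 and 11.9 CPM against 6.54, 5.8 and 5.59 CPM in NT, a log2 difference of 0.87 ± 0.0976 (adjusted p = 4.63e-05). At 2, 4 and 8 h the log2 differences were 0.13, 0.28 and 0.28 and were not called. The adjusted p was 0.308, 0.0763 and 0.0406, the last with a fold under the threshold.

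The mean CPM of *Scrg1* was higher in IFT88siRNA than in NT at each time, and the differences at 0 h and 4 h were called. At 0 h the IFT88siRNA libraries held 27, 30 and 30 reads, and NT held 2, 8 and 11. The log2 difference was 1.74 ± 0.356 (adjusted p = 0.00124), and from 1.31 to 2.25 with 1 library left out. On log2(TPM + 1) it was 1.11 and not called (adjusted p = 0.0789). Counts in IFT88siRNA were 127, 136 and 158 at 1 h, 175, 142 and 159 at 2 h, 76, 82 and 91 at 4 h, and 34, 43 and 41 at 8 h. The highest mean was at 2 h in both siRNA groups. The log2 difference was 0.48 ± 0.131 at 1 h (adjusted p = 0.0188, under the fold threshold), 0.59 ± 0.16 at 2 h (adjusted p = 0.08), then 0.67 ± 0.172 at 4 h (adjusted p = 0.0388, called) and 0.73 ± 0.26 at 8 h (adjusted p = 0.143). The 4 h call was lost without any 1 of NT replicates 1, 2 and 3 or IFT88siRNA replicates 1 and 3, with log2 values from 0.56 to 0.79. At 24 h the gene was removed as too low in the fit of that time: IFT88siRNA held 5, 8 and 10 reads and NT 1, 2 and 0, a scaled ratio of 6.52 with an exact 95% counting interval from 1.97 to 33.9. It was called there when all 36 libraries were fitted together (adjusted p = 0.0165), and so was the 2 h difference (adjusted p = 0.0175).

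*Hapln1* and *Matn2* were not called at any time. For *Hapln1* the log2 difference ran from -0.05 ± 0.0748 at 0 h to -0.37 ± 0.0975 at 24 h, where the adjusted p was 0.0279 with a fold of 0.775. It was below 0 at all 6 times. For *Matn2* the largest difference was -0.24 ± 0.0756 at 2 h (adjusted p = 0.126), and the smallest -0.01 ± 0.0832 at 8 h. Over 6 times together the adjusted p was 0.0151 for *Hapln1* and 0.0523 for *Matn2*, with no fold over 1.5 in either.

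The 3 genes too low to measure are given as reads. *Acan*, the aggrecan gene, had 2 to 16 reads per NT library (median 6.5) and 1 to 5 per IFT88siRNA library (median 3). At 0 h NT held 10, 9 and 8 reads and IFT88siRNA 5, 3 and 3, at 1 h 10, 7 and 5 against 2, 4 and 3, and at 2 h 8, 10 and 16 against 1, 4 and 3. The groups did not overlap at these 3 times and overlapped from 4 h on. Summed over all libraries there were 119 reads in NT and 51 in IFT88siRNA, a scaled ratio of 0.368 with an exact 95% counting interval from 0.26 to 0.516. *Acan* passed the filter on low counts only in fits that hold NT libraries together, where it is higher, so the calls of those fits (adjusted p = 0.000137 for the siRNA groups over 6 times, 0.00106 for the NT course) had to favour a difference and are not used as support. With no filter on low counts, the difference between the siRNA groups was called at 0 h (adjusted p = 0.0404) and 2 h (adjusted p = 0.00767). Within NT the sums were 27 reads at 0 h, 34 at 2 h, 10 at 4 h and 9 at 24 h, with ratios to 0 h of 0.448 at 4 h (interval 0.194 to 0.955) and 0.283 at 24 h (interval 0.117 to 0.619). The call at 4 h (adjusted p = 0.0449) was lost with DESeq2 (adjusted p = 0.178), with no filter (adjusted p = 0.121), with a replicate block (adjusted p = 0.0556) and in 10 of 18 fits without 1 library, those without NT replicates 1, 2 or 3 at 0 h, 2 at 1 h, 2 or 3 at 4 h, 1 or 2 at 8 h and 1 or 2 at 24 h (adjusted p up to 0.149).

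*Cilp* had 1 to 8 reads per NT library and 1 to 15 per IFT88siRNA library, 70 and 76 in all. That is a scaled ratio of 0.933 with an interval from 0.666 to 1.31, so no difference between the siRNA groups was detectable at this depth. In IFT88siRNA it went from 15, 8 and 6 reads at 0 h to 1, 2 and 4 at 24 h, a ratio of 0.212 (interval 0.0785 to 0.496) that was called when no filter was set (adjusted p = 0.00452). *Chad* had 0 to 11 reads per NT library and 1 to 9 per IFT88siRNA library, 86 and 73 in all, for a ratio of 0.73 (interval 0.527 to 1.01). NT at 2 h was the lowest group of *Chad*, with 3, 0 and 0 reads, against 6, 11 and 10 at 0 h. That is a ratio of 0.123 with an interval from 0.0239 to 0.4, and it was called when no filter was set (adjusted p = 0.000541). A floor of 3 reads is worth 0.126 CPM in a library of median size, and levels of *Cilp* and *Chad* in many libraries are at or below it. The responses of *Cilp2* and *Cilp* were therefore not compared.

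**Figure D4:**
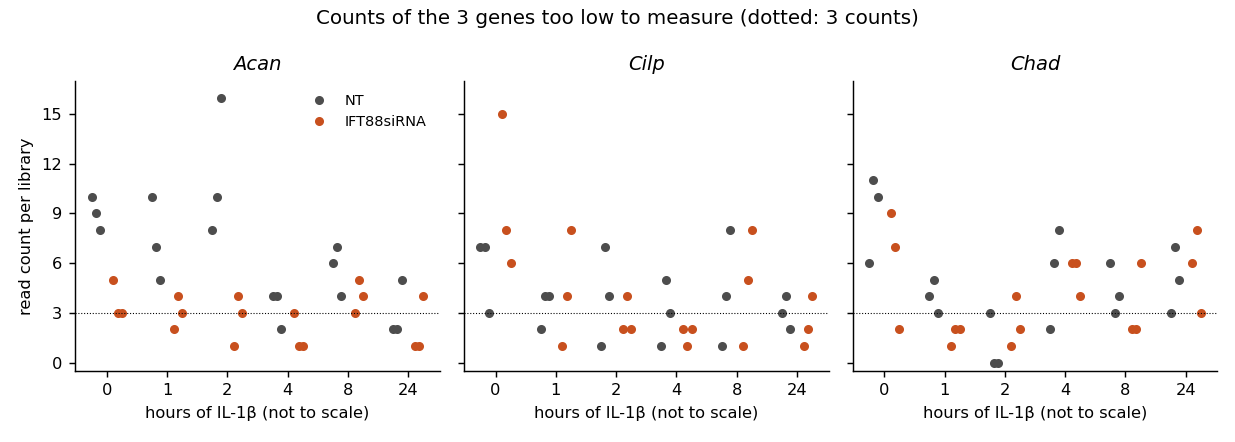
Reads per library of *Acan*, *Cilp* and *Chad* at each time for NT (grey) and IFT88siRNA (orange); each point is a library and the dotted line marks 3 reads. *Acan* lies at 8 to 16 reads in NT at 2 h and at 1 to 4 reads in IFT88siRNA, while the points of *Cilp* mix.

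Other genes of the same families and of matrix making were read through 7 lists by function, which hold some of the 8 genes. Among the lecticans and link proteins, *Vcan*, the versican gene, was the most abundant, and at 8 h it moved opposite to *Hapln1*. It stood at 11.4 TPM in NT at 0 h and was higher by 1.75 on the log2 scale at 8 h (adjusted p = 4.82e-15). *Hapln3* fell, by 1.28 on the log2 scale at 8 h. Of the 7 genes on that list beside *Acan* 4 were kept by the fit, and 2 were called higher and 2 lower at 24 h (6.61% and 9.71% of all genes), with a median log2 change of -0.25 against -0.02 over all genes. Of 4 matrilins 3 were tested in NT, and 1 was called over the 5 times together. Beside *Matn2*, these were *Matn4*, higher by 1.7 on the log2 scale at 24 h with a mean of 0.494 TPM over all libraries, and *Matn1*, which at a mean of 5.25 reads per library is too low to measure. Of 5 thrombospondins 4 were tested. *Thbs1*, a matricellular protein gene at 1000 TPM in NT at 0 h, was higher by 1.87 on the log2 scale at 2 h and lower by 0.67 at 24 h (log2 -0.67). *Comp* likewise was higher at 2 h and lower at 24 h, whereas *Thbs2* was higher by 1.75 at 24 h.

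Among 18 other cartilage proteins 9 were tested in NT. At 1 h 2 were called higher and 5 lower (9.22% and 9.45% of all genes), with a median log2 change of -0.59 against -0.01 over all genes, and at 24 h 1 was higher and 5 lower (6.61% and 9.71%). The collagen genes *Col11a1* and *Col10a1* changed by -1.76 and -2.05 on the log2 scale at 24 h, and *Prg4*, which codes for lubricin, by 2.72 at 8 h. Of 25 genes for the assembly of chondroitin sulfate chains 22 were tested, and 7 were higher and 1 lower at 4 h (16.3% and 12.4% of all genes), led by the sulfotransferase gene *Chst11* (log2 2.71). At 24 h 1 of the 22 was called in each direction, a share near or below that of all genes (6.61% and 9.71%). Of 12 proteases that cut aggrecan or COMP, 10 were tested, and 8 were called higher and 0 lower at 2 h (13.0% and 14.3% of all genes) with a median log2 change of 0.95 against -0.01. *Adamts1* was highest at 1 h (log2 2.85), *Adamts4* at 4 h (2.21), and *Mmp13* and *Mmp3* at 8 h (5.37 and 5). In NT at 0 h *Mmp13* had 0.43 ± 0.149 TPM and *Mmp3* 0.192 ± 0.137 TPM (SD), so the size of these 2 changes depends on low starting levels. *Sox9*, the main transcription factor of chondrocytes, changed by 1.75 at 2 h, along with *Sox6* (1.71).

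Between the siRNA groups, calls over the 6 times together differed by list, where 5.19% of all genes tested were called. Of the other cartilage proteins 4 of 10 were called, of the proteases 3 of 10, and of the chondrocyte transcription factors 2 of 3. For lecticans and link proteins the count was 4 of 6. It holds the call of *Acan*, which had to favour a difference, so it is not set against that share. Thrombospondins had 1 of 4 called, matrilins 0 of 4 and chondroitin sulfate assembly 0 of 23. At 0 h 2 of 9 other cartilage proteins were lower and 0 higher (1.56% and 0.674% of all genes). *Col2a1*, the type II collagen gene, was lower in IFT88siRNA at 0 h (log2 -0.76, adjusted p = 3.52e-07), 1 h (-0.68), 2 h (-0.62) and 4 h (-0.59), and *Col10a1* at 1 h (-1.02), 2 h (-0.8) and 4 h (-0.77). *Sox9* was higher at 0 h (0.61) and 24 h (0.74). The proteases *Mmp3* and *Mmp13* were lower in IFT88siRNA at 4, 8 and 24 h, with log2 differences of -1.73 and -1.68 at 8 h.

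Over the 12 condition means, the genes whose log2 CPM ran most like each member were found among 10756 genes with a mean of at least 5 CPM. The closest to *Cilp2* was *Adgrf5* (Pearson r = 0.985), followed by *Tnfrsf11b* and *Penk* (both 0.973). For *Comp* they were *1500015O10Rik* (0.99), *Pdia5* (0.986) and *Clec3b* (0.984), and for *Scrg1* *Gpnmb* (0.992), *Clec3b* (0.991) and *Cbr2* (0.99). *Hapln1* was closest to *Vldlr* (0.978), *Map2* (0.975) and *Pdgfd* (0.974). The closest to *Matn2* was *Crk*, at 0.89. These are descriptions over 12 points that share the same libraries, and the highest of so many values is high by choice.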

How the data were processed

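Poly(A) RNA of 36 samples was sequenced as paired-end reads. Per the methods and the submitters' processing notes, reads were aligned to GRCm38 with HISAT2 2.1.0, and the authors deposited raw read counts per gene from featureCounts (Subread 1.6.3, default parameters, which do not use strand). TPM per gene, from Salmon 0.9.1 with GC bias correction, was deposited too and keeps no depth. No lane or batch is assigned to a library in the sources used here. The siRNA dose is 50 nM in the labels and 10 nM in the study's methods.

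Libraries were grouped by their labels. The count tests used edgeR 4.0.16 under R 4.3.3 (TMM scaling, filterByExpr, quasi-likelihood F-tests, Benjamini-Hochberg adjustment over all genes of a fit). NT and IFT88siRNA courses were fitted on 18 libraries each, IFT88siRNA against NT on 3 against 3 libraries per time, and joint tests over time on the 18 NT or all 36 libraries. Genes were called at an adjusted p under 0.05 and a fold change over 1.5, at 1 or more times in a joint test. The SE is the absolute log2 change divided by the square root of F. A gene was taken as too low to measure where the filter removed it or its mean was under 10 counts per library. CPM used TMM factors over 36 libraries, and ratios of summed reads have exact (Clopper-Pearson) 95% intervals. Coordinates and transcript words came from GENCODE vM21 on GRCm38. The steps were tested on simulated data. Replicate libraries of a condition differed by 1.65 to 10 in chi-square per degree of freedom, so none was taken as deposited more than once.

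The 8 genes, the 7 gene lists and the marker lists were chosen with earlier results of these data known. Named were the 8 genes, *Ift88*, at most 6 genes of a list (largest change among those called, or highest mean TPM), and the 3 genes most like each member with a mean of at least 1 TPM. Alternatives were DESeq2 1.42.0, its size factors, upper-quartile scaling, no filter on low counts, no fold threshold, all 36 libraries in a fit, a replicate block, limma 3.58.1 on log2(TPM + 1) or log2(TPM + 0.1) with a TPM of 1 in 3 libraries, no minimum TPM, and leaving out each library. Figures used matplotlib 3.10.9.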

Additional observations from a re-analysis of the deposited data

Results flagged for a closer look

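The response of *Cilp2* to IL-1β differed between IFT88siRNA and NT by a test of the difference itself, over 5 times together (edgeR, adjusted p = 0.000867). The rise from 0 h was smaller in IFT88siRNA from 1 h to 8 h, with a log2 difference of -1.78 at 1 h and -0.79 at 8 h. At 24 h the level was below 0 h in both groups, with log2 changes of -2.28 in IFT88siRNA and -1.93 in NT. Over the alternatives other than leaving out libraries the adjusted p ran from 4.3e-33 to 0.00526. Conditions have 3 samples each, too few to test for a sample far from the others.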

How the results depend on the processing

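No called result reversed under an alternative. The number of calls between IFT88siRNA and NT over 6 times, 7 of 48, was the least stable: it was 11 with no fold threshold, 11 with no filter on low counts (*Acan* at 0 h and 2 h among them), 12 with all 36 libraries in a fit, 4 with DESeq2 (which gave no adjusted p for 2 of the 7), 2 and 2 on log2(TPM + 1) and log2(TPM + 0.1) with limma, and 0 on TPM without a minimum, where more genes are tested. In the TPM tests with a minimum, the calls left were those of *Cilp2* at 1 h and *Comp* at 24 h, and the cause of the loss was not tested. The calls in NT against 0 h ranged from 17 to 23 (20, of which 2 are of *Acan*) and those in IFT88siRNA from 14 to 20 (16 in the fit described). The test of a different response called 2 genes in place of 1 with no fold threshold, and 1 to 2 with single libraries left out. Over all genes, the counts called moved by more than 1.5 times without the fold threshold (14188 for the NT course, 5314 for the siRNA groups, 924 for the response), on TPM (421, and 367 with no minimum, for the siRNA groups, and 115 with no minimum for the response) and with no filter (345 for the response). Upper-quartile scaling moved the median of all genes to as low as -0.137 and TPM to as low as -0.252 on the log2 scale after IL-1β.

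Fitted with a replicate block, the calls were 19 of 40 in NT, 16 of 40 in IFT88siRNA and 7 of 48 between the siRNA groups. These totals include comparisons that were not tested. *Scrg1* gained its 2 h call (adjusted p = 0.0298) and lost that at 4 h (adjusted p = 0.066). Libraries with the same number deviated together in 2 of 18 pairs (r over 0.1, range -0.133 to 0.223), and the labels do not say that a number marks a shared culture or day. A depth of 19337022 counts or more leaves *Acan*, *Cilp*, *Chad* and, in NT at 24 h, *Scrg1* near the floor of 3 reads.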
